A study of Mus musculus with 20 samples.

Results

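The genes described here are the 3 E protein genes Tcf3, Tcf4 and Tcf12 and the 4 Id genes Id1, Id2, Id3 and Id4, which are 7 of 21887 mouse protein-coding genes (autosomes and sex chromosomes). They were chosen by name as a gene family, with earlier results of these data known, and their mm10 positions decided which peaks were counted for them. Peaks of H3K27ac, H3K4me3 and H3K27me3 were taken over each gene and within 1 kb of its ends, and H3K27ac peaks and HEB sites also within 100 kb. All 7 genes carried both active marks and none carried H3K27me3, a combination found at 44.7% of all protein-coding genes. HEB sites lay within 100 kb of Id3 and Id2 and of none of the others, against 12.0% of all protein-coding genes.

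E proteins are basic helix-loop-helix transcription factors that bind E-box sequences (CANNTG) as dimers, with each other or with tissue-restricted bHLH partners. Id proteins share the helix-loop-helix but lack the basic DNA-binding region, so an E protein held by an Id protein does not bind DNA. HEB, the factor mapped in these cells, is the E protein encoded by Tcf12, so HEB sites near the Id genes lie beside the genes of its own inhibitors. In the mouse mammary gland, Id2 is known for its part in alveolar development and Id4 as a regulator of basal cells.

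The data came from chromatin immunoprecipitation with sequencing in passage 28 of Comma-Dβ, an epithelial line from the mouse mammary gland. Antibodies to HEB, H3K27ac, H3K4me3 and H3K27me3 gave 4 groups of 4 replicates, and input chromatin gave the fifth group, for 20 samples in all. All groups share 1 line and 1 growth medium (DMEM/F12 with 5 ng/mL mouse EGF, 0.125 IU/mL insulin, 2% serum and 10 mM HEPES), with no treatment or genotype to compare. H3K27ac is found at promoters and enhancers in use and H3K4me3 at promoters, while H3K27me3 is the Polycomb mark of gene silencing.

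The deposited values were 1 peak list per antibody, with no value per replicate, so no value below has a replicate error, no test was made, and read depth is unknown. The fold of a peak is the enrichment value in the authors' list, taken here as a ratio of ChIP over control. It was used to describe and rank peaks within a list. The order of the genes by any value therefore has no spread to judge neighbouring ranks by. Of 10 mammary epithelial marker genes, all 10 had H3K27ac and all 10 H3K4me3 over the gene or within 1 kb, and 5 had H3K27me3 as well. H3K27ac lay at 4 of 6 immune, 2 of 5 endothelial and 1 of 5 adipocyte markers. H3K4me3 lay at 2, 2 and 1 of them and H3K27me3 at 4, 4 and 3. Of all protein-coding genes, 63.2% had H3K27ac, 61.2% H3K4me3 and 37.5% H3K27me3. The share of immune markers with H3K27ac, 66.7%, was thus near that of all genes.

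H3K27ac lay over or within 1 kb of all 7 genes, against 63.2% of all protein-coding genes. H3K4me3 likewise lay at all 7, against 61.2%. H3K27me3 lay at 0 of 7, against 37.5%. The combination of both active marks without H3K27me3, found at all 7 genes, was found at 44.7% of all protein-coding genes. These shares were not adjusted for gene length, with a median of 4913 bp over the 7 genes against 17169 bp over all. The 4 Id genes were shorter than the latter and the 3 E protein genes longer. The widest H3K27ac peak at each gene had a median of 8058 bp over the 7 genes, against 2498 bp over the 13837 genes with the mark. The widest H3K4me3 peak had a median of 4939 bp over the 7 genes, against 2250 bp over 13398 genes. Folds stood less far apart, with a median highest fold of 6.06 against 4.41 for H3K27ac and of 20.7 against 19.9 for H3K4me3.

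**Figure D1:**
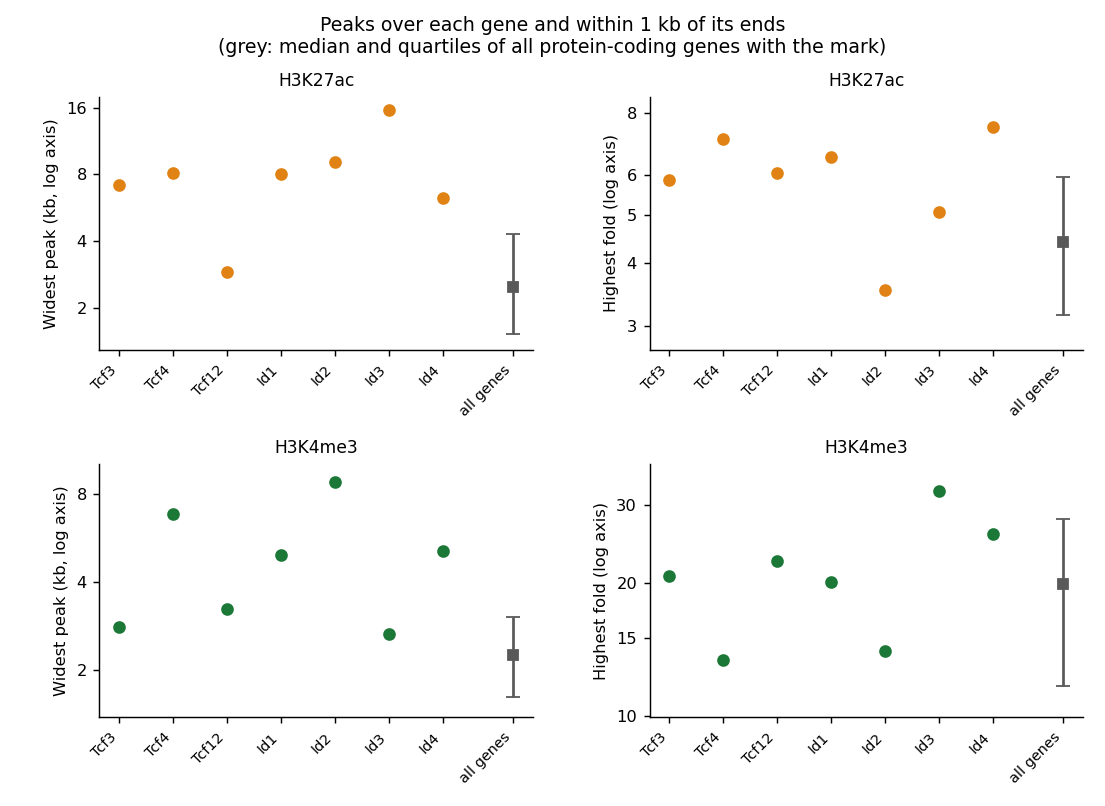
Width (kb) of the widest peak and highest fold of H3K27ac (top) and H3K4me3 (bottom) over each gene and within 1 kb of its ends, with 1 point per gene, and the median and quartiles of all protein-coding genes with the mark in grey. All axes are logarithmic; Id3 had the widest H3K27ac peak of the 7 (15.6 kb) and Id2 the widest H3K4me3 peak (8.79 kb) with the lowest H3K27ac fold (3.54).

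Every gene was marked at a gene end, but the layouts of the families differed. The 4 Id genes are 1.16 to 4.91 kb long, and each lay under 1 H3K27ac and 1 H3K4me3 peak. The H3K27ac peak covered 100% of each Id gene. Tcf3 is 24.4 kb long, Tcf12 268 kb and Tcf4 345 kb, and they held 5, 16 and 17 H3K27ac peaks, which covered 22.9% of Tcf3, 6.83% of Tcf12 and 11.3% of Tcf4. The numbers of peaks follow the lengths of the genes, so they are not compared between families.

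Tcf3 (gene ID 21423, minus strand, chromosome 10, 80409541 to 80433976) encodes the E2A proteins, known from B cell development. Its start lay under a 7170 bp H3K27ac peak of fold 5.87, which reached 5.11 kb upstream of the gene, and under a 2800 bp H3K4me3 peak of fold 20.7. Its other 4 H3K27ac peaks lay inside the gene and were narrow and weak, at 609 to 1552 bp and folds of 1.85 to 2.05. All 4 were below the median fold of the H3K27ac list, 2.39.

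Tcf4 (gene ID 21413, chromosome 18, 69343429 to 69687967) encodes the E protein E2-2, known from plasmacytoid dendritic cells, and is not the Wnt pathway factor that shares this alias. It had 5 H3K4me3 peaks, and each of the other 6 genes had 1. The strongest active chromatin lay inside the gene, where an 8134 bp H3K27ac peak of fold 7.08 and a 6854 bp H3K4me3 peak of fold 13.4 began 248 kb from the lower-coordinate end. At that end itself lay an H3K27ac peak of 5216 bp and fold 4.10 and an H3K4me3 peak of 5402 bp and fold 9.26. The 3 remaining H3K4me3 peaks were 473 to 1123 bp wide with folds of 2.51 to 4.56, and 1 of them, of fold 4.56, did not overlap H3K27ac. By fold, the interior of Tcf4 thus stood above its lower-coordinate end, whereas at Tcf3 and Tcf12 the peaks at the start had the highest folds of the gene.

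Tcf12 (gene ID 21406, minus strand, chromosome 9, 71844252 to 72111893) encodes HEB itself, known from T cell and muscle development. Its start had an H3K4me3 peak of 3229 bp and fold 22.4 and an H3K27ac peak of 1918 bp and fold 6.06. This was the narrowest H3K27ac peak at the start of any of the 5 genes with a listed start. The widest H3K27ac peak of Tcf12, 2907 bp and fold 2.33, lay inside the gene, and still the gene ranked lowest of the 7 by widest H3K27ac peak, above 73.2% of protein-coding genes. In this and the later percents of genes, those without a peak are included and count as below. Among genes with H3K27ac the median was 2498 bp. Of its 16 H3K27ac peaks, 4 stood above the median fold of the list, and only the one at the start overlapped H3K4me3.

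Id1 (gene ID 15901, chromosome 2, 152736251 to 152737410) is a classical target of BMP signalling. It lay under an 8058 bp H3K27ac peak of fold 6.52 and a 4939 bp H3K4me3 peak of fold 20.1. Id4 (gene ID 15904, plus strand, chromosome 13, 48261116 to 48266028) had the highest H3K27ac fold of the 7, 7.48, in a 6269 bp peak. Its H3K4me3 peak measured 5091 bp with a fold of 25.7 and covered 89.4% of the gene. At Id4 both peaks stopped close to the gene, with H3K27ac reaching 0.863 kb upstream and 0.493 kb downstream.

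Id2 (gene ID 15902, minus strand, chromosome 12, 25093799 to 25096092) had the widest H3K4me3 peak of the 7, 8791 bp, wider than the widest of 99.8% of protein-coding genes, with a moderate fold of 14.0. Its H3K27ac peak of 9096 bp had nearly the same borders and the lowest fold of the 7, 3.54. Both extended upstream of the gene, by 5.51 kb for H3K27ac and 5.20 kb for H3K4me3.

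Id3 (gene ID 15903, plus strand, chromosome 4, 136143822 to 136145392) differed from Id2 in its H3K4me3 peak. It was the narrowest of the 7 at 2657 bp and had the highest fold, 32.2, above 90.4% of protein-coding genes. Its H3K27ac peak was the widest, 15614 bp with a fold of 5.06, and was wider than the widest peak of 99.1% of genes. It reached 9.97 kb upstream and 4.07 kb downstream of the gene. Inside this domain, outside the gene, lay 3 further H3K4me3 peaks of folds 4.29, 2.06 and 2.77, all below the list's median of 12.9.

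**Figure D2:**
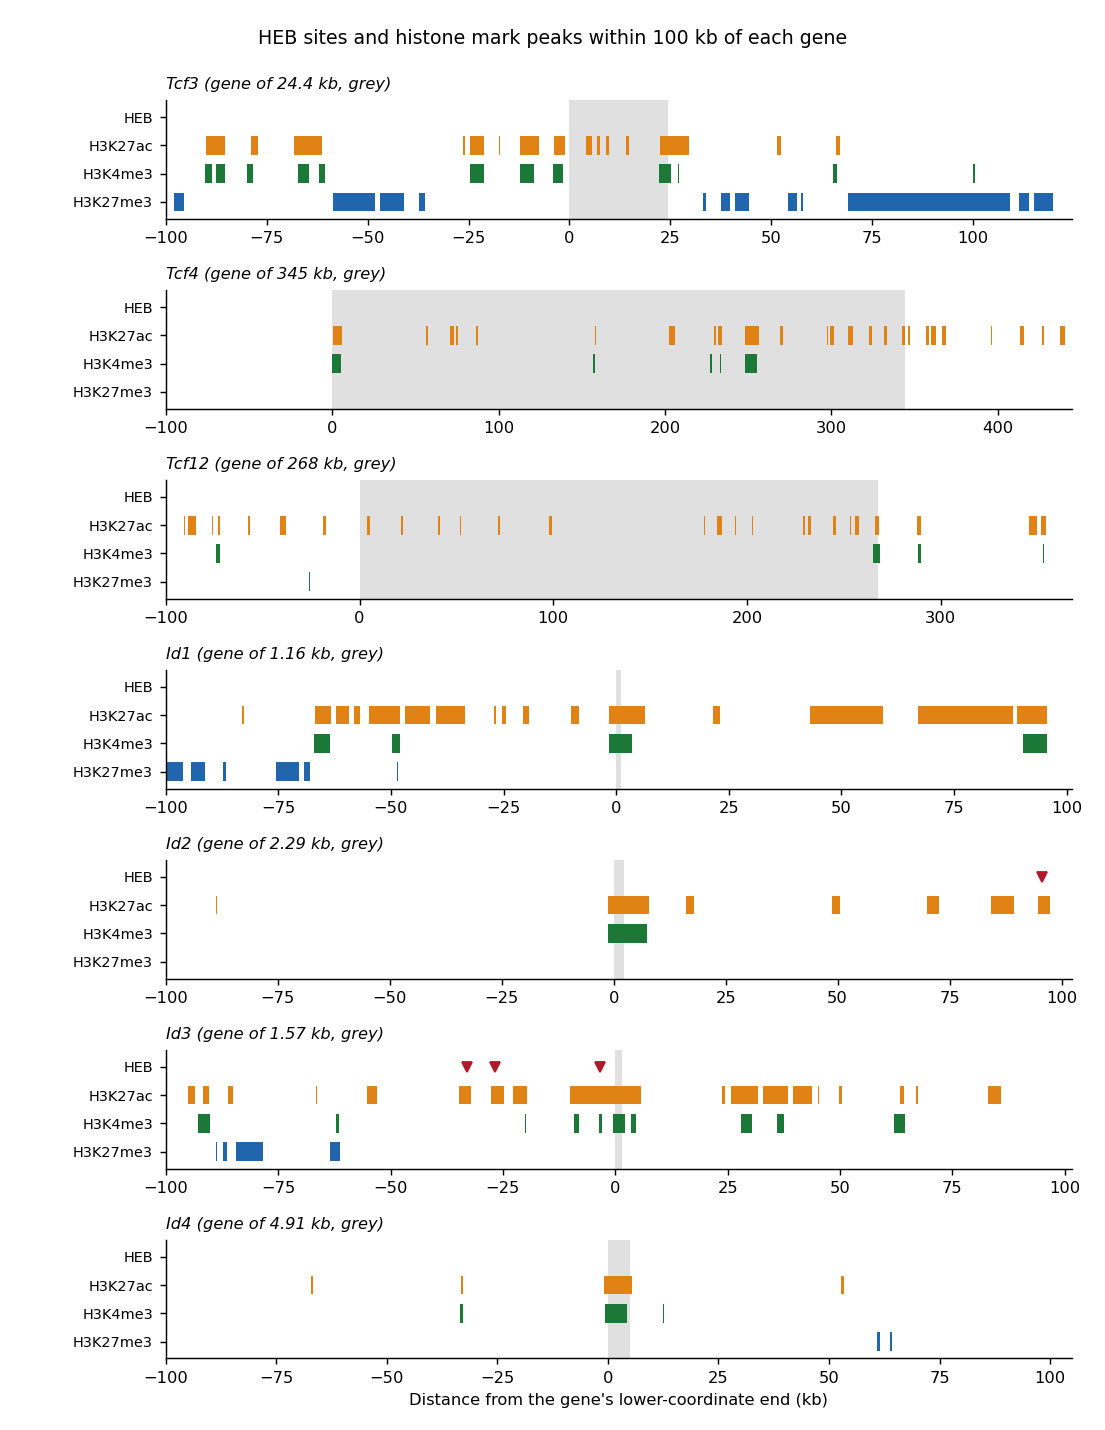
Positions of HEB sites (triangles, not to width) and of H3K27ac, H3K4me3 and H3K27me3 peaks (boxes) within 100 kb of each gene, with distance from the gene's lower-coordinate end in kb on each horizontal axis and the gene in grey. HEB sites stand near Id2 (1) and Id3 (3), and no H3K27me3 box touches a gene.

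Promoter sequences from RefSeq (GRCm38.p6, 250 bases before to 50 after a transcript start) were matched by symbol for 5 of the 7 genes, in 7 entries, of which 3 belong to Tcf12. All 7 entries overlapped H3K27ac, 6 overlapped H3K4me3 and 0 overlapped an HEB site. The promoters of Id2 and Id3 are shown because HEB sites lay near these genes, and those of Tcf12 because it encodes HEB and its outer and innermost starts differed in their marks. The outer Tcf12 entry (chr9:72111770-72112069, minus strand) and that of Id2 (chr12:25096043-25096342, minus strand) and Id3 (chr4:136143572-136143871, plus strand) were covered over all 300 bases by both active marks. The innermost Tcf12 entry (chr9:71896047-71896346, minus strand) had no H3K4me3, and a 414 bp H3K27ac peak of fold 2.32 covered 69 of its bases. Each is written 5′ to 3′ along the gene, with every CANNTG match, searched on both strands, in capitals.
Id2: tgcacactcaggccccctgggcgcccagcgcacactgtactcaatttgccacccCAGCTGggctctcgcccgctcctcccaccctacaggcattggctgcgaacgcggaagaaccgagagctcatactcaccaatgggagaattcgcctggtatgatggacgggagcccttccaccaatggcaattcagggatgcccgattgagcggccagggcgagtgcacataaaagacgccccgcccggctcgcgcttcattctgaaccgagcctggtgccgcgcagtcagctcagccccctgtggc
Id3: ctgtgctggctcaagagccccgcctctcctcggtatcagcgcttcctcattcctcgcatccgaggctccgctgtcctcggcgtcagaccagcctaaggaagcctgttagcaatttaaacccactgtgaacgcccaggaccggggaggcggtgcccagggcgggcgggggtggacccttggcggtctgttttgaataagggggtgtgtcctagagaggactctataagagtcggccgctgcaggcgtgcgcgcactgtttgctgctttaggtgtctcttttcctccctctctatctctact
Tcf12 outer start: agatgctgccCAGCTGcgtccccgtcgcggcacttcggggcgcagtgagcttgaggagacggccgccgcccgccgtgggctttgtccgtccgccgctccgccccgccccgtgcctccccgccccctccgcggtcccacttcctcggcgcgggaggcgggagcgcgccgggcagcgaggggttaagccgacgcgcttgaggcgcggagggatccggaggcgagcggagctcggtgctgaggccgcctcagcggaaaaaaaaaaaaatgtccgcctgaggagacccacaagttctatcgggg
Tcf12 innermost start: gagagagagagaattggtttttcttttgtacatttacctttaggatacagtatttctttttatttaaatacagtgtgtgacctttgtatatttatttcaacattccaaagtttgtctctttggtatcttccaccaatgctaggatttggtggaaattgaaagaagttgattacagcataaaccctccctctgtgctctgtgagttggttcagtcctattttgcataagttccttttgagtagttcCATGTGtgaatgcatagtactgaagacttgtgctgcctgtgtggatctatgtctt

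In these 4 windows, Id2 held 1 E-box, CAGCTG, 196 bases upstream of its start, and the outer Tcf12 window held 1 CAGCTG, 240 bases upstream. The innermost Tcf12 window held CATGTG 5 bases upstream of its start, and the Id3 window held no match. The Id4 window also held none, Tcf3 held 1 (CACTTG, 54 bases upstream) and the middle Tcf12 window 2. CACCTG, also searched on both strands, was in none of the 7 windows. Among all 32851 RefSeq promoter windows of this length, 72.3% held a CANNTG, 16.3% a CAGCTG and 20.2% a CACCTG, and every CAGCTG and CACCTG is also a CANNTG. A match describes letters only, and the absence of one says nothing of the factor.

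HEB sites lay within 100 kb of 2 of the 7 genes, against 12.0% of all protein-coding genes. The 4 sites, of 956 in the list, were 3 near Id3 and 1 near Id2, and all 4 lay upstream of the gene. A count of 3 or more sites within 100 kb, as at Id3, was found for 127 protein-coding genes, or 0.580%. All 4 sites lay in H3K27ac peaks, and so did 815 of all 956 sites (85.3%). Of the 4, 1 overlapped H3K4me3, which is near the share of all sites (23.4%). None of the 4 overlapped H3K27me3, and the share of all sites in that mark was not counted.

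The 3 Id3 sites spanned 30.2 kb (distances here run from the edge of a site to the edge of the gene). The nearest, 481 bp wide (chromosome 4, 136140262 to 136140742), lay 3.08 kb upstream, inside the 15614 bp H3K27ac peak that also covers Id3. It also lay in one of the weak H3K4me3 peaks of that domain, of 657 bp and fold 2.06. The middle site, 609 bp wide (136116819 to 136117427), lay 26.4 kb upstream in a separate 2840 bp H3K27ac peak of fold 4.73. The farthest, 456 bp wide (136110549 to 136111004), lay 32.8 kb upstream in a 2711 bp H3K27ac peak of fold 2.07. The folds of the peaks that held these sites thus ran from one exceeding 31.6% of the H3K27ac list to one exceeding 89.4% of it, and the median over all HEB sites in H3K27ac was 4.20.

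Between the middle site and the Id3 domain lay a further H3K27ac peak without HEB (136121053 to 136124242), 3190 bp wide. Its fold of 6.54 was higher than that of any of the 3 peaks with a site. No protein-coding gene lay between the 3 sites and Id3, and the lncRNA gene Gm42329 did. The sites were also within 100 kb of Rpl11, E2f2 and Asap3, and the 2 farther ones of Eloa, so position does not assign them to Id3 alone. Among the ends of protein-coding genes, an end of Id3 was the nearest for all 3. Ends of lncRNA genes were not compared.

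**Figure D3:**
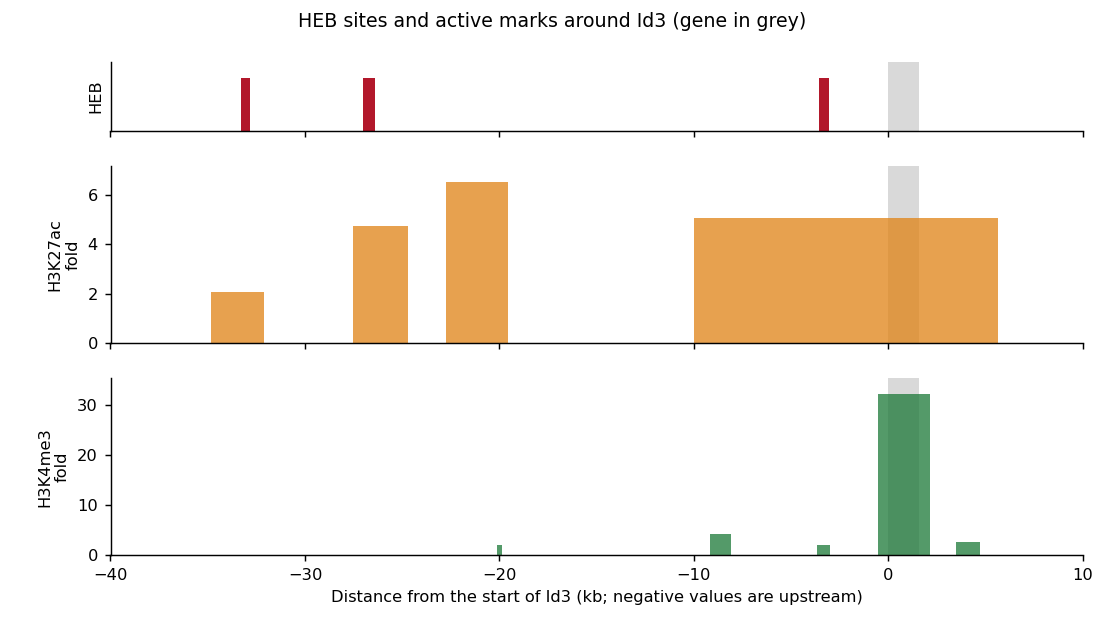
HEB sites (top), H3K27ac peaks (middle) and H3K4me3 peaks (bottom) from 40 kb upstream to 10 kb downstream of the Id3 start, with distance in kb on the horizontal axis, box width to scale, box height as the authors' fold and the gene in grey. The H3K27ac domain over Id3 (fold 5.06) holds the nearest HEB site, the peaks of folds 4.73 and 2.07 hold the other sites, and the peak of fold 6.54 holds none.

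The Id2 site, 416 bp wide (chromosome 12, 25189242 to 25189657), lay 93.1 kb upstream, in a 2664 bp H3K27ac peak of fold 2.97 without H3K4me3. Id2 was the only protein-coding gene within 100 kb of it, and the lncRNA genes Gm17746, Gm36287 and Gm36496 lay between. This site stands just inside the 100 kb limit. The first site outside it belonged to Id1, where the nearest HEB site was 188 kb away, and at 50 kb Id3 would be the only gene of the 7 with a site. For the other genes the nearest site was at 419 kb for Tcf3, 1315 kb for Id4, 1786 kb for Tcf4 and 5603 kb for Tcf12. The nearest site to Tcf12, the gene of HEB itself, was thus the farthest of the 7. No distance over all protein-coding genes is given here, so these distances are not called long or short.

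The 100 kb window includes the gene, so all 7 genes had H3K27ac in it by the peaks already described (87.3% of protein-coding genes did). The H3K27ac peaks in the 7 windows numbered 112 in all. Of these, 42 lay over the genes or within 1 kb, 34 between protein-coding genes, 21 inside other genes and 15 at the ends of other genes. The count per gene was 26 for Tcf4 and for Tcf12, 18 for Id3, 16 for Id1, 15 for Tcf3, 7 for Id2 and 4 for Id4, with a median of 16 against 9 over all protein-coding genes. The windows differ in length with the gene, and the share of the window covered removes that. H3K27ac covered 42.2% of the window at Id1, 26.2% at Id3, 16.9% at Tcf3, 11.5% at Id2, 9.74% at Tcf4, 8.22% at Tcf12 and 3.85% at Id4. The median of the 7 was 11.5%, and that of all protein-coding genes was 5.97%.

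The surroundings of the 4 Id genes differed among themselves. At Id1 the cover exceeded that of 99.6% of genes, but much of it lay in other genes, with peaks of 21.0 kb and 16.2 kb inside Bcl2l1, an inhibitor of apoptosis. Id2 was nearly alone, with 1 other coding gene in its window. Of its 7 H3K27ac peaks, 5 lay upstream between genes, 13.9 to 92.5 kb from it, and all 5 were above the list's median fold, at 2.97 to 4.44. Id4 had no other coding gene within 100 kb, and its 3 further peaks were 390 to 740 bp wide, of which the one 32.7 kb upstream, at fold 3.72, also carried H3K4me3. At Id3, 4 peaks lay at ends of other genes and 6 inside them. The highest fold in its window, 10.9, lay at an end of Rpl11, a ribosomal protein gene, and not near Id3.

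Around the E protein genes the picture varied as well. Tcf3 lies among 11 other coding genes, and 7 of its 15 peaks were at their ends, including the strongest, of fold 6.97. Tcf4 had no other coding gene in its window, so that all 26 peaks lay in it or between genes, and 14 of them stood above the list's median fold. Tcf12 had 1 other coding gene, Cgnl1, within 100 kb, which held 6 of its 26 peaks, and 11 stood above the median. Over the 7 genes, 58 of 112 peaks stood above the median fold of the list.

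**Figure D4:**
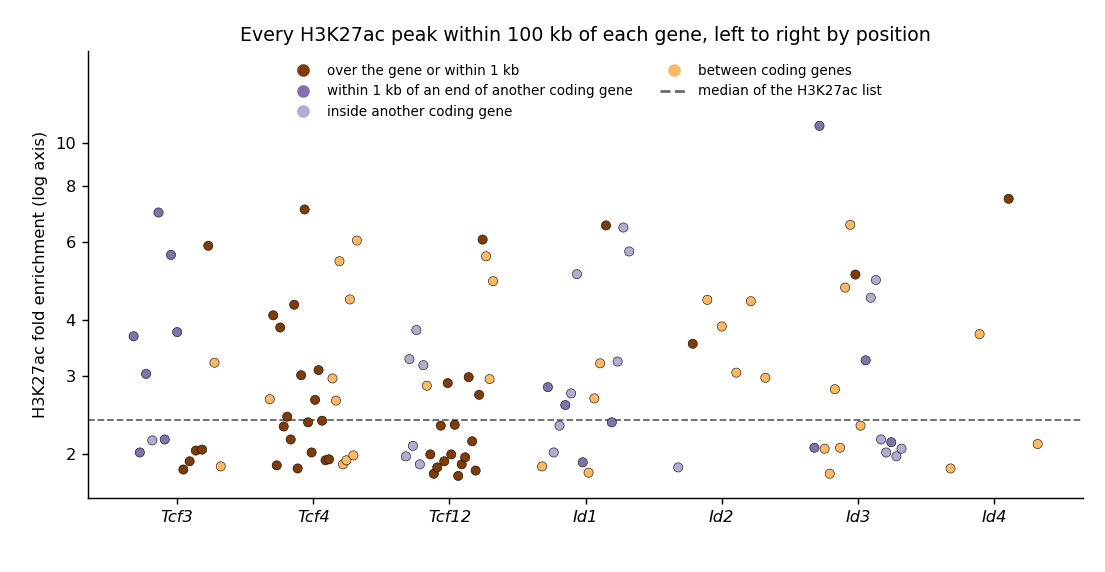
Fold enrichment (log axis) of every H3K27ac peak within 100 kb of each gene, 1 point per peak, ordered by position within a gene and coloured by where it lies, with the median of the list (2.39) dashed. Id2 has 6 of 7 peaks above the median, and Id3 has 8 of 18 with the highest point, 10.9, at another gene.

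No H3K27me3 peak was listed at the genes, but peaks lay in the windows of 5 of the 7, against 87.8% of protein-coding genes. At Tcf3 it covered 34.3% of the window in 12 peaks, the nearest 8.53 kb away. At Id1 it covered 7.17%, at Id3 4.53%, at Id4 0.459% and at Tcf12 0.122%, against a median of 10.6% over all protein-coding genes. Tcf4 and Id2 had none in their windows, and their nearest peaks lay 688 kb and 379 kb away. Just outside the 1 kb limit, the nearest H3K27ac peaks stood 1.12 kb from Tcf3 and 1.33 kb from Tcf4, and the nearest H3K4me3 peaks 1.72 kb from Tcf3 and 1.89 kb from Id3.

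Other genes of the pathway were read in the same window, where 63.2% of all protein-coding genes had H3K27ac, 61.2% H3K4me3 and 37.5% H3K27me3. Of the 32 tissue-restricted bHLH partners, such as neurogenic, myogenic and haematopoietic factors, 26 carried H3K27me3, 9 H3K4me3 and 5 H3K27ac. H3K27me3 without either active mark was found at 18 of them, and both active marks without H3K27me3 at 2, Scx and Twist1. An HEB site within 100 kb was found for Scx (1.65 kb away), Lyl1 (18.1 kb, 3 sites) and Hand1 (79.8 kb). The widest H3K27ac peaks of this list were at Scx, a tendon factor (11.8 kb), and Lyl1, a haematopoietic factor (4.56 kb), which had H3K27ac alone. The other genes with H3K27ac were Twist1, Twist2 and Mesp2. Twist1, Twist2 and Mesp2 were named after their values were seen.

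The 17 E protein cofactors, which are acetyltransferases, deacetylases, corepressors and LIM adaptors, were mostly in the active state. H3K27ac lay at 16, H3K4me3 at 17 and H3K27me3 at 4. Among the widest H3K27ac peaks of the list was that at the LIM-only gene Lmo4 (9.83 kb). HEB sites lay within 100 kb of 2 of the 17 genes. The ETO family corepressor gene Cbfa2t3 had 1 site, which overlapped the gene, and an H3K27me3 peak of 77.6 kb. Cbfa2t3 also had both active marks, with a widest H3K27ac peak of 504 bp and a widest H3K4me3 peak of 1614 bp. Their highest folds there were 2.40 and 2.74.

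Of 20 genes of BMP and TGF-beta signalling, whose Smads act on Id genes, 17 had H3K27ac, 18 H3K4me3 and 8 H3K27me3. The widest H3K27ac peaks were at the inhibitory Smad gene Smad7 (27.5 kb) and at Smad3 (13.1 kb), which transmits TGF-beta signals. HEB sites lay 6.59 kb from the ligand gene Tgfb1 and 93.3 kb from the BMP antagonist gene Nog. Of 9 Hes and Hey repressor genes, a bHLH family with some members downstream of Notch, 4 had H3K27ac, 6 H3K4me3 and 6 H3K27me3. As shares of the 9 these are 44.4%, 66.7% and 66.7%, beside the same 63.2%, 61.2% and 37.5%. Hes1 and Hes6 had the widest H3K27ac peaks (9.13 and 3.28 kb), and HEB sites lay 31.1 kb from Hes1 and 87.8 kb from Hes2. By share, HEB sites were near 9.38% of partners, 11.8% of cofactors and 10.0% of BMP and TGF-beta genes, close to the 12.0% of all protein-coding genes, and near 22.2% of Hes and Hey genes, which is 2 of 9.

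**Figure D5:**
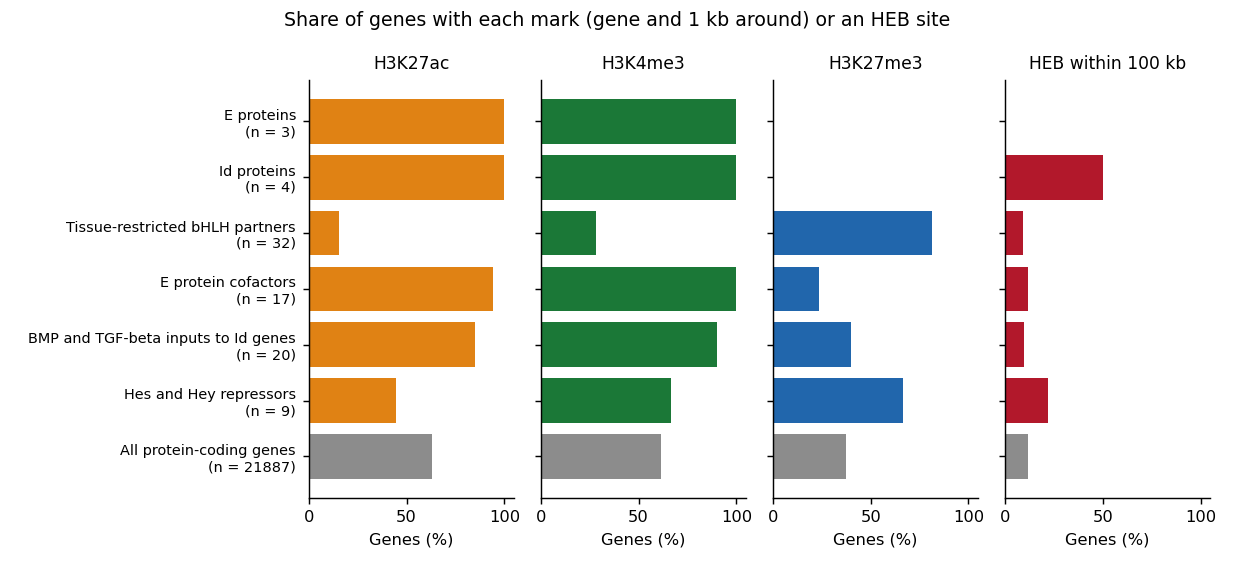
Percent of the genes in each list with H3K27ac, H3K4me3 or H3K27me3 over the gene or within 1 kb, and with an HEB site within 100 kb, with all 21887 protein-coding genes in grey. E protein and Id genes are at 100% for both active marks and 0% for H3K27me3, and the bHLH partners are at 15.6%, 28.1% and 81.2%.

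The genes most like each of the 7 were found by distance of percentile ranks over 7 measures, which were the widest peak and highest fold of each histone mark at the gene and the number of HEB sites within 100 kb. The measure ranks genes within these lists only, and the distances are in percentile points. The nearest to Tcf3 were Fam53b (4.32) and Uap1 (4.82), to Tcf4 Hdgf (0.823) and Arid2 (3.66), and to Tcf12 Crat (3.57) and Ppm1d (3.61). The nearest to Id1 were Ezr (3.29) and Rchy1 (3.83), and to Id4 Txnrd1 (2.57) and Gsk3b (2.91). Id2 and Id3 had less close matches, which were Zfp598 (8.96) and Csrp1 (12.3) for Id2, and Trim16 (6.66) and Snap47 (8.05) for Id3. These 2 genes had HEB sites, as only 12.0% of protein-coding genes did, so fewer genes could rank near them on that measure. Their larger distances are therefore not a separate result. No member of either family was among the 2 nearest genes of another. With only 2 genes named per member out of 21887 protein-coding genes, this does not show that the members are unlike each other.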

How the data were processed

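Per the labels, chromatin of Comma-Dβ cells was profiled by ChIP-seq with 4 antibodies and as input, in 4 replicates a group. The deposited files were 4 peak lists. Their build is mm10 and SAMtools was among the tools, per the submitters' processing notes. No aligner, peak caller or way of combining replicates is given in the sources used here. For HEB the deposited file gives coordinates without values, and its name calls it a replicate consensus (minimum overlap 2). The histone lists have the broadPeak layout. The authors' fold was taken from that layout as a ratio of ChIP over control per peak, and the control is not named in the sources used. The deposited −log10 q is the authors' own. The deposited score, 10 times the −log10 q, was not used, nor was the −log10 p.

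Gene positions came from RefSeq (GRCm38.p6, the assembly behind mm10), with strand from its promoter table where listed. A peak or site was counted at an overlap of 1 bp or more with the gene extended by 1 kb or 100 kb, and the gene's own body was included. The overlap search was checked on simulated intervals. Python 3.11.15, pandas 2.3.3 and numpy 2.4.6 were used. Members and gene lists were chosen with earlier results of these data known. All 7 genes were described, and of each pathway list the genes with an HEB site and the 2 with the widest H3K27ac peak were named, except 1 cofactor gene that is not reported here. For each member the 2 most similar genes were named. Alternatives changed the peak threshold, the window, the distance and the overlap rule.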

Additional observations from a re-analysis of the deposited data

How the results depend on the processing

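The counts of genes with each mark and of HEB sites stayed within 1.5 times their values in 31 of 34 alternatives, among them stricter peak thresholds and windows of 500 and 2500 bp. The 3 others were these. With HEB sites at most 50 kb away, 1 gene of the 7 had a site (Id3) against 2 at 100 kb. The 112 H3K27ac peaks within 100 kb became 57 when a −log10 q of at least 5 was asked for and 58 with only peaks above the median fold of the list. Among the rest, 3 genes had an HEB site within 200 kb, 78 H3K27ac peaks lay within 50 kb, and H3K27ac lay at 5 genes where the midpoint of a peak had to fall in the window. No paired analysis was possible because the lists hold no value per replicate, and for the same reason no replicate could be left out. Depth per sample is unknown, so a missing peak or site means only that none was listed.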
